A study of Homo sapiens with 9 samples.

Results

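The 10 genes described here encode proteins of the lipid droplet, the organelle in which cells store triglyceride under a coat of proteins, and were found by their symbols among the 60683 genes of the deposited count table. They are HILPDA and G0S2, PNPLA2 and ABHD5, the perilipins PLIN2, PLIN3, PLIN4 and PLIN5, and CIDEB and CIDEC. All 10 passed the filter on low counts and were among the 22672 genes tested. RNA-seq was performed on Hep3B cells, a human hepatocellular carcinoma line, and every library came from this 1 line. Cells were kept for 24 hours in 3 conditions with 3 biological replicates each, namely DMSO vehicle at 20% O2, DMSO vehicle at 1% O2, and 32-134D at 1% O2. 32-134D is a small molecule inhibitor of hypoxia-inducible factors (HIFs), the transcription factors that accumulate when O2 is scarce. The samples hold no 32-134D culture at 20% O2, so the compound could be compared with vehicle only under hypoxia, and the sample labels state no dose.

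Stored triglyceride is released by hydrolysis at the droplet surface, and the first enzyme of this pathway is adipose triglyceride lipase, the product of PNPLA2. Its activity rises when it binds the co-activator ABHD5 (also called CGI-58), and it is held back by the small inhibitory proteins HILPDA and G0S2. Perilipins coat the droplet and govern the access of lipases to it. PLIN2 is the main droplet coat protein of hepatocytes, PLIN3 is made in most tissues and moves between cytosol and droplet, PLIN4 is best known from adipocytes and muscle, and PLIN5 is abundant in tissues that oxidize fatty acids, where it links droplets to mitochondria. CIDEB and CIDEC (also called FSP27) promote droplet growth and lipid exchange between droplets, and CIDEB also takes part in the lipidation of very low density lipoprotein in hepatocytes. HILPDA and PLIN2 are known HIF target genes, and several of the other genes are targets of PPARs, nuclear receptors that are activated by fatty acids.

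The upstream stretches of 4 members are shown first because the transcripts of these members were the 2 with the largest called changes in each direction under hypoxia, up in G0S2 and PLIN2 and down in PLIN5 and PLIN4. They were taken from the RefSeq promoter table on GRCh38.p14, which held 9 of the 10 members. HILPDA was not among them. The search covered the 250 bases before each start site for the core of the hypoxia response element, ACGTG or GCGTG on either strand, which is marked by capitals. For PLIN2 and G0S2 only the longest run outside annotated exons is shown, and it holds fewer cores than the search found, while for PLIN4 and PLIN5 the whole 250 bases are shown. For PLIN2 the stretch is chr9:19127577-19127742 (minus strand, positions -250 to -85 from the start site), and a site of 30 bases nearer to the start site, chr9:19127548-19127577, nearly all of it within an annotated exon, is given on the next line because it holds the palindrome CACGTG, in which the core reads on both strands, at position -69. For G0S2 it is chr1:209675248-209675411 (plus strand), for PLIN4 chr19:4518487-4518736 (minus strand) and for PLIN5 chr19:4535225-4535474 (minus strand), each 5′ to 3′.
PLIN2 upstream: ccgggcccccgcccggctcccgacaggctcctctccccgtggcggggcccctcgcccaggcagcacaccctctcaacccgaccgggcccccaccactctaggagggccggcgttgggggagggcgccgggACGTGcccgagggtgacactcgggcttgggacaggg
PLIN2 site: GCGTGctgccgcgggtCACGTGctgcggag
G0S2 upstream: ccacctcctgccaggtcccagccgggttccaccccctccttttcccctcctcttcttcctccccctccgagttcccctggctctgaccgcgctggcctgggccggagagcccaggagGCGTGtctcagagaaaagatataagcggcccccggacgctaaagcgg
PLIN4 upstream: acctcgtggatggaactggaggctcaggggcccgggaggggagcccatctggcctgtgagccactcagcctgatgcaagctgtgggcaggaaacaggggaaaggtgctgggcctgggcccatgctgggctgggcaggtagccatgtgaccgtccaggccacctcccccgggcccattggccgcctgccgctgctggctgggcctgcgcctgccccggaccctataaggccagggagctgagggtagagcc
PLIN5 upstream: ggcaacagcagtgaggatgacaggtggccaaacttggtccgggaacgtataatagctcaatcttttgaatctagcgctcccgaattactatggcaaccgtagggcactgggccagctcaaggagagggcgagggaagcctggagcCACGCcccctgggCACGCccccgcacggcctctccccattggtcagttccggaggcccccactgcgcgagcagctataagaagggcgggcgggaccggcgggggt
In the whole 250 bases, the core was found at 4 positions for PLIN2, 4 for G0S2, 3 for PLIN3, 2 for PLIN5, and 1 each for CIDEB and for ABHD5. It was found at 0 positions for PNPLA2, PLIN4 and CIDEC. The CACGTG of PLIN2 was counted on each strand, at -69 and -68, so these positions overlap. Among all 35116 windows of this length in the table, 43.2% held the core at least once and 19.4% held it at 2 or more positions, so the core is a common sequence. The letters AGGTCANAGGTCA, an exact direct repeat of the kind bound by PPARs, were found in none of the 9 members searched and in 0.0171% of all windows. These matches describe letters in a window and do not show binding.

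The libraries held between 6013980 and 40549699 counted reads, with the smallest in replicate 2 of vehicle at 20% O2. A gene was called higher or lower with an FDR below 0.05 (Benjamini-Hochberg, edgeR quasi-likelihood test over all genes tested) and a fold change above 1.5. Levels are given as CPM (counts scaled to library size) after TMM scaling, with the SD over 3 libraries, and log2 fold changes with their standard error (SE). Replicate 3 of 32-134D stood apart from the other libraries of its group, since the chi-square over genes, per degree of freedom, was 36.2 and 40.5 against them and 2.08 between them. Replicate 1 of each vehicle group also stood apart, at 6.724 and 13.26 against 1.641 between the other libraries at 20% O2, and at 8.629 and 12.96 against 2.599 at 1% O2. These values were not matched for depth and cannot be ranked between groups, and the 1.641 involves the smallest library. Hepatocyte transcripts such as ALB and HNF4A were abundant, and the summed level of the 8 hepatocyte markers was 16650 to 17960 CPM in vehicle at 20% O2, 11620 to 14460 CPM in vehicle at 1% O2 and 11160 to 16550 CPM with 32-134D. The lower sum in hypoxic vehicle came mainly from APOB, which encodes apolipoprotein B and was at 4487, 405.5 and 3520 CPM on average in the 3 groups (log2 fold change -3.47 under hypoxia and 3.12 with 32-134D at 1% O2). Of the other 7, AFP was lower under hypoxia (-0.69), TTR (-0.92) and FGB (-0.98) were lower with 32-134D at 1% O2, and ALB, APOA1, SERPINA1 and HNF4A were called in neither comparison. The 5 adipocyte markers summed to at most 1.11 CPM in any library, with CIDEA at 0 and ADIPOQ, LEP and FABP4 at 1 read each over all libraries. The 5 leukocyte markers summed to 1.37 to 4.45 CPM (CD3E at 0) and the 3 endothelial markers to 0.0943 to 1.28 CPM (VWF at 0). The 5 fibroblast and stellate cell markers summed to 32.9 to 37.5, 13.3 to 14.8 and 28.9 to 30.5 CPM in the 3 groups in the same order, ACTA2 was at 0, and the part of these transcripts in the results was not tested. Most of the fibroblast and stellate cell sum was PDGFRB, at 27.2, 10.1 and 22.0 CPM on average, and DCN had 4 reads over all libraries. All libraries came from 1 cell line. In bulk RNA a lower share of some cells within that line and less of an RNA per cell cannot be told apart. Scaling mattered to the balance of calls over all genes. Under hypoxia 48.98% of calls were higher with TMM, against 34.51% with total library size and 35.73% with upper-quartile factors. For 32-134D against vehicle at 1% O2 the share was 54.24%, against 72.02% and 66.12%. For 32-134D against vehicle at 20% O2 it was 85.34%, against 80.23% and 68.37%. With total library size the median log2 fold change of all genes moved to -0.21 under hypoxia and to 0.17 with 32-134D at 1% O2, and with upper-quartile factors to -0.19 and 0.11.

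At 1% O2, 6 of the 10 genes were higher than at 20% O2 (HILPDA, G0S2, PNPLA2, ABHD5, PLIN2 and CIDEB), 2 were lower (PLIN4 and PLIN5) and 2 were not called (PLIN3 and CIDEC). Among all genes tested, 19.5% were called higher and 20.3% lower in this comparison. The median log2 fold change of the 10 genes was 0.77, beside 0.0010 for all genes tested. With 32-134D at 1% O2, 6 of the 10 were lower than in vehicle at 1% O2 (HILPDA, G0S2, PNPLA2, ABHD5, PLIN2 and CIDEB), 3 were higher (PLIN4, PLIN5 and CIDEC) and PLIN3 was not called, where 13.7% of all genes tested were lower and 16.2% were higher. Their median log2 fold change was -0.74, beside -0.01 for all genes. The 3 libraries of vehicle at 1% O2 enter both comparisons, so an error in the level of those libraries moves both, in opposite directions. Against vehicle at 20% O2, 32-134D at 1% O2 left 2 of the 10 genes higher (G0S2 and ABHD5), 1 lower (PLIN5) and 7 not called, where 3.0% of all genes were higher and 0.516% were lower.

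**Figure D1:**
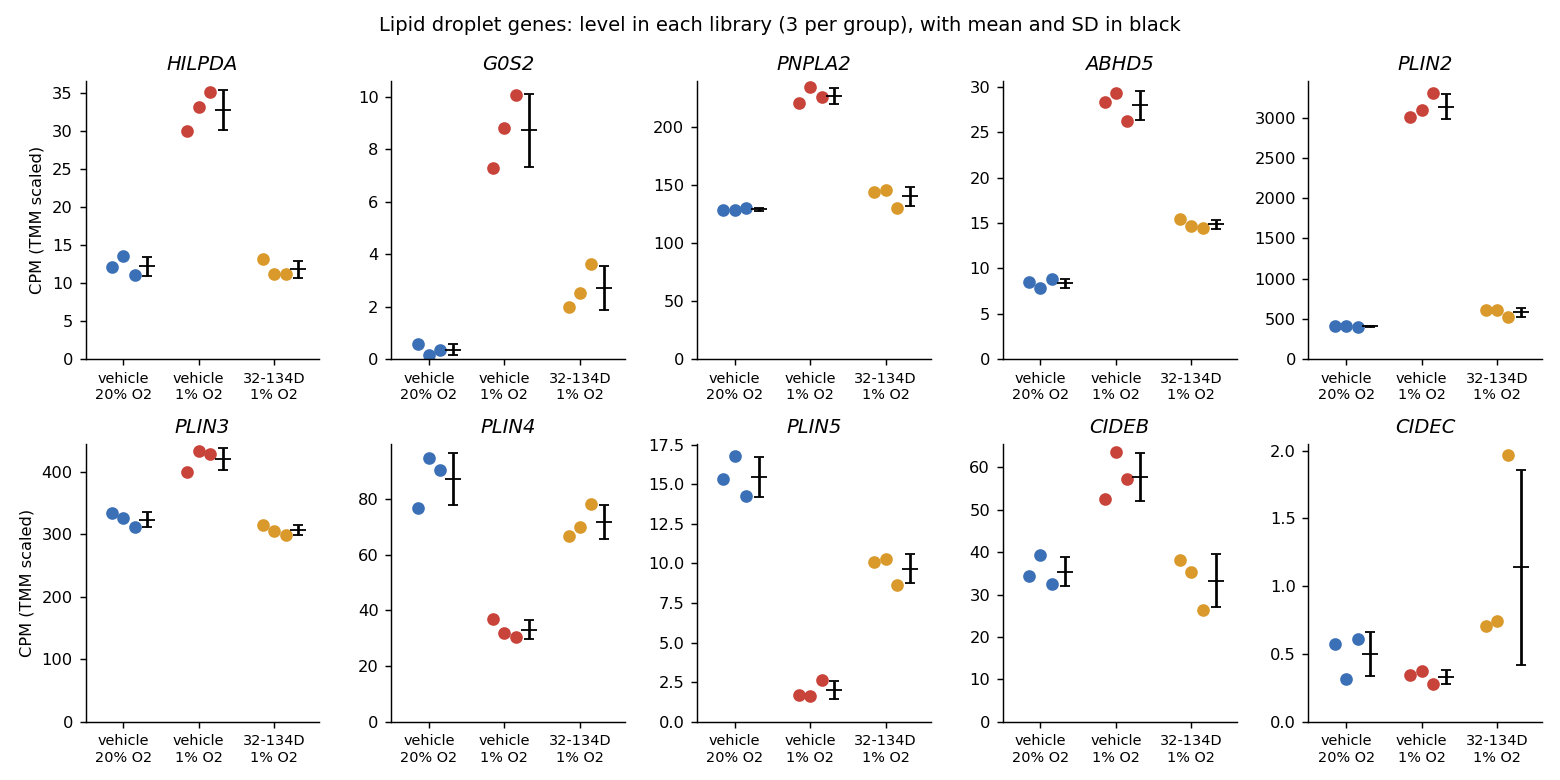
Level of each of the 10 lipid droplet genes in every library, in CPM after TMM scaling on linear axes that start at 0. Points are the 3 libraries of each group, and the black bar beside them is the mean and SD. In HILPDA, G0S2, PNPLA2, ABHD5, PLIN2, PLIN3 and CIDEB the 3 vehicle libraries at 1% O2 lie above the other 6 libraries, and in PLIN4 and PLIN5 they lie below them.

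The transcripts of both lipase inhibitors were higher at 1% O2, G0S2 by much the larger factor, and both were lower again with 32-134D, but only HILPDA reached the range of normoxic vehicle. HILPDA (ENSG00000135245, chromosome 7, 128455849 to 128458418, plus strand, GRCh38) encodes hypoxia-inducible lipid droplet-associated protein, an inhibitor of the PNPLA2 lipase. Its level was 12.1, 13.5 and 11.0 CPM in replicates 1, 2 and 3 of vehicle at 20% O2, 29.9, 33.1 and 35.1 CPM in vehicle at 1% O2, and 13.1, 11.1 and 11.2 CPM with 32-134D. The vehicle libraries at 1% O2 stood clear of all others, and the libraries with 32-134D lay within the span of vehicle at 20% O2. The mean under hypoxia rose from 12.2 ± 1.25 to 32.7 ± 2.62 CPM (SD, n = 3 each), which is 1.45 on the log2 scale (SE 0.11, edgeR FDR = 6.25e-08). In the cells given 32-134D the mean was 11.8 ± 1.13 CPM (SD, n = 3), and the log2 fold change from vehicle at 1% O2 was -1.47 (SE 0.11, edgeR FDR = 8.24e-08). Between 32-134D and vehicle at 20% O2 the log2 difference was -0.02, with a 95% interval from -0.27 to 0.23 (edgeR FDR = 0.952). That interval bounds the difference and does not show that the levels were equal.

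G0S2 (ENSG00000123689, chromosome 1, 209675420 to 209676388, plus strand), the G0/G1 switch gene 2, encodes the second inhibitor of the same lipase. It was close to silent at 20% O2, with 8, 1 and 11 counts in replicates 1, 2 and 3, and had 275, 187 and 291 counts in vehicle at 1% O2 and 70, 75 and 79 counts with 32-134D. Scaled to depth, these were 0.574, 0.157 and 0.335 CPM, then 7.29, 8.82 and 10.1 CPM, then 1.99, 2.53 and 3.61 CPM. The 3 groups did not overlap, and the libraries with 32-134D lay between the vehicle groups. The log2 fold change under hypoxia was 4.51 (SE 0.32, edgeR FDR = 2.22e-08), the largest of the 10, and only 131 of the genes tested had a higher one. With 32-134D it was -1.71 from vehicle at 1% O2 (SE 0.22, edgeR FDR = 1.46e-05). A difference from vehicle at 20% O2 remained, with a log2 fold change of 2.80 (SE 0.35, edgeR FDR = 0.000137) and a 95% interval from 2.04 to 3.55. The size of the fold under hypoxia rests on few reads in the normoxic libraries, and across the alternatives it ran from 4.30 to 4.78 on the log2 scale.

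The lipase and its co-activator changed in the same directions as the inhibitors, and ABHD5 changed by the larger factor under hypoxia. PNPLA2 (ENSG00000177666, chromosome 11, 818902 to 825573, plus strand) was at 128.9, 128.4 and 130.7 CPM in vehicle at 20% O2, 220.9, 234.7 and 225.9 CPM in vehicle at 1% O2 and 144.6, 146.0 and 130.4 CPM with 32-134D. The hypoxic vehicle libraries were well apart from the rest, and replicate 3 of 32-134D fell among the normoxic libraries while replicates 1 and 2 lay above them. The log2 fold change was 0.81 under hypoxia (SE 0.07, edgeR FDR = 1.27e-07) and -0.69 with 32-134D at 1% O2 (SE 0.07, edgeR FDR = 1.06e-06). The second value lies near the fold change threshold and was no longer called with total library size (-0.51), with upper-quartile factors (-0.57) or after thinning all libraries to the smallest (-0.54). Against vehicle at 20% O2 the log2 difference with 32-134D was 0.12 (95% interval -0.03 to 0.26, edgeR FDR = 0.317).

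ABHD5 (ENSG00000011198, chromosome 3, 43690108 to 43734371, plus strand) was at 8.46, 7.85 and 8.82 CPM in vehicle at 20% O2, 28.4, 29.4 and 26.2 CPM in vehicle at 1% O2, and 15.4, 14.7 and 14.5 CPM with 32-134D. The 3 groups were separate, with 32-134D between the vehicle groups. The log2 fold change was 1.72 under hypoxia (SE 0.10, edgeR FDR = 3.25e-09) and -0.91 with 32-134D at 1% O2 (SE 0.09, edgeR FDR = 1.55e-06). Unlike HILPDA and PNPLA2, ABHD5 was called higher with 32-134D than in vehicle at 20% O2, by 0.81 on the log2 scale (SE 0.10, edgeR FDR = 0.000143). Whether the difference from normoxic vehicle was larger for ABHD5 than for PNPLA2 was not tested, but their 95% intervals, 0.59 to 1.03 and -0.03 to 0.26, did not overlap.

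Inhibitor, co-activator and lipase can be compared with each other only per length, so their levels were divided by the union of annotated exons in kilobases. The ratio of HILPDA to PNPLA2 was 0.175 ± 0.0194 in vehicle at 20% O2, 0.267 ± 0.0192 in vehicle at 1% O2 and 0.156 ± 0.0134 with 32-134D (SD, n = 3 each). The hypoxic vehicle libraries, at 0.252 to 0.289, lay above both other groups, which overlapped. The ratio of G0S2 to PNPLA2 was 0.0122 ± 0.00720, 0.170 ± 0.0258 and 0.0869 ± 0.0322 in the same order, and its lowest library with 32-134D (0.0609) lay above the highest normoxic one (0.0198). The ratio of ABHD5 to PNPLA2 was 0.0330 ± 0.00166, 0.0627 ± 0.00323 and 0.0541 ± 0.00266. Each of the 3 regulators was thus higher relative to the lipase transcript in hypoxic than in normoxic vehicle. With 32-134D, G0S2 and ABHD5 stayed above the normoxic ratio in each library and HILPDA did not. These ratios are of RNA and were not tested.

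**Figure D2:**
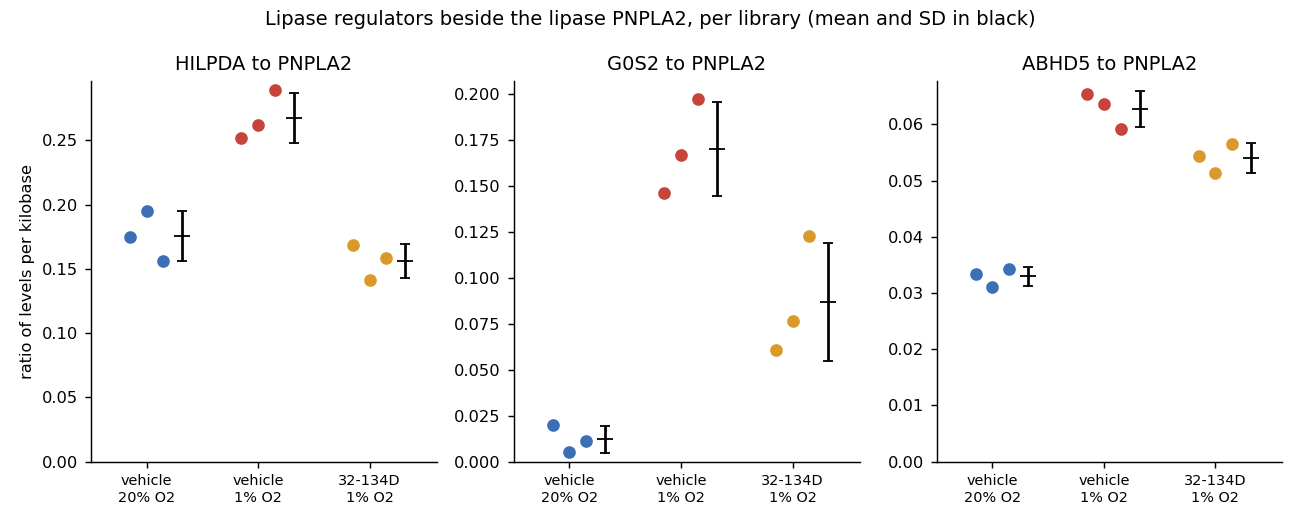
Ratio of HILPDA, G0S2 and ABHD5 to PNPLA2 in each library, each gene as CPM per kilobase of exon, on linear axes from 0. Points are the 3 libraries of each group and the black bar is the mean and SD. The ratio of HILPDA with 32-134D (0.156 ± 0.0134) overlaps that of vehicle at 20% O2, while those of G0S2 and ABHD5 lie above it.

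Among the perilipins, PLIN2 was higher under hypoxia and PLIN4 and PLIN5 were lower, each with the opposite direction under 32-134D, and PLIN3 changed by less than the fold change threshold. PLIN2 (ENSG00000147872, chromosome 9, 19108375 to 19149290, minus strand), the hepatocyte droplet coat protein, was at 408.0, 410.1 and 399.7 CPM in vehicle at 20% O2, 3012, 3094 and 3313 CPM in vehicle at 1% O2, and 615.4, 606.4 and 519.7 CPM with 32-134D. The 3 groups were separate, and the libraries with 32-134D lay much nearer to normoxic than to hypoxic vehicle. The mean rose from 405.9 ± 5.54 to 3140 ± 156 CPM (SD, n = 3 each), which is 2.95 on the log2 scale (SE 0.08, edgeR FDR = 2.84e-12), or 7.74-fold. The mean with 32-134D was 580.5 ± 52.8 CPM (SD, n = 3), and the log2 fold change from vehicle at 1% O2 was -2.44 (SE 0.08, edgeR FDR = 6.14e-11), and only 178 of the genes tested had a lower one. Against vehicle at 20% O2 the difference with 32-134D was 0.52 on the log2 scale (SE 0.08, edgeR FDR = 0.000567), or 1.43-fold, which passed the FDR but not the fold change threshold. It passed both without replicate 3 of 32-134D (0.59).

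PLIN2 was among the most abundant transcripts under hypoxia. Its reads were 0.0419% to 0.0435% of all counts in vehicle at 20% O2, 0.279% to 0.299% in vehicle at 1% O2 and 0.0540% to 0.0635% with 32-134D. By CPM it ranked 12 among the genes tested in each of the hypoxic vehicle libraries, against 294 to 304 in normoxic vehicle and 142 to 208 with 32-134D. The 10 genes summed to 0.108% ± 0.00267, 0.360% ± 0.0113 and 0.122% ± 0.00689 of all counts in the 3 groups (SD, n = 3 each), so most of the change in this sum was PLIN2.

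PLIN3 (ENSG00000105355, chromosome 19, 4838341 to 4867768, minus strand), formerly TIP47, was at 334.0, 326.1 and 311.0 CPM in vehicle at 20% O2, 400.2, 432.8 and 428.3 CPM in vehicle at 1% O2, and 315.3, 304.9 and 299.5 CPM with 32-134D. The hypoxic vehicle libraries were above all others, and the other groups overlapped. The log2 fold change was 0.38 under hypoxia (SE 0.07, edgeR FDR = 0.000181), or 1.30-fold, and -0.46 with 32-134D at 1% O2 (SE 0.07, edgeR FDR = 4.34e-05), or 1.37-fold lower. Both passed the FDR and neither passed the fold change threshold. With total library size the value under hypoxia was 0.16.

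PLIN4 (ENSG00000167676, chromosome 19, 4502180 to 4518465, minus strand) was at 76.9, 94.7 and 90.3 CPM in vehicle at 20% O2, 37.0, 31.8 and 30.4 CPM in vehicle at 1% O2, and 66.9, 70.0 and 78.4 CPM with 32-134D. Hypoxic vehicle was lowest, and the highest library with 32-134D exceeded the lowest normoxic one. The log2 fold change was -1.40 under hypoxia (SE 0.10, edgeR FDR = 2.72e-08) and 1.12 with 32-134D at 1% O2 (SE 0.10, edgeR FDR = 4.98e-07). Against vehicle at 20% O2 it was -0.28 with 32-134D (95% interval -0.49 to -0.07, edgeR FDR = 0.0917), which did not pass after adjustment.

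PLIN5 (ENSG00000214456, chromosome 19, 4522531 to 4535224, minus strand), the perilipin of oxidative tissues, was at 15.4, 16.8 and 14.3 CPM in vehicle at 20% O2, 1.70, 1.65 and 2.66 CPM in vehicle at 1% O2, and 10.1, 10.3 and 8.64 CPM with 32-134D. The groups were separate, with 32-134D between the vehicle groups and nearer to the normoxic one. The hypoxic values rest on 64, 35 and 77 counts. The log2 fold change was -2.93 under hypoxia (SE 0.18, edgeR FDR = 3.93e-09), or 7.62-fold lower, close in size and opposite in sign to that of PLIN2. With 32-134D it was 2.27 from vehicle at 1% O2 (SE 0.17, edgeR FDR = 1.13e-07). PLIN5 was the only 1 of the 10 genes that was called lower with 32-134D than in vehicle at 20% O2, by a log2 fold change of -0.66 (SE 0.15, edgeR FDR = 0.0140). That call was lost without replicate 2 of vehicle at 20% O2 (-0.61, edgeR FDR = 0.0637) and without replicate 3 of 32-134D (-0.57).

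**Figure D3:**
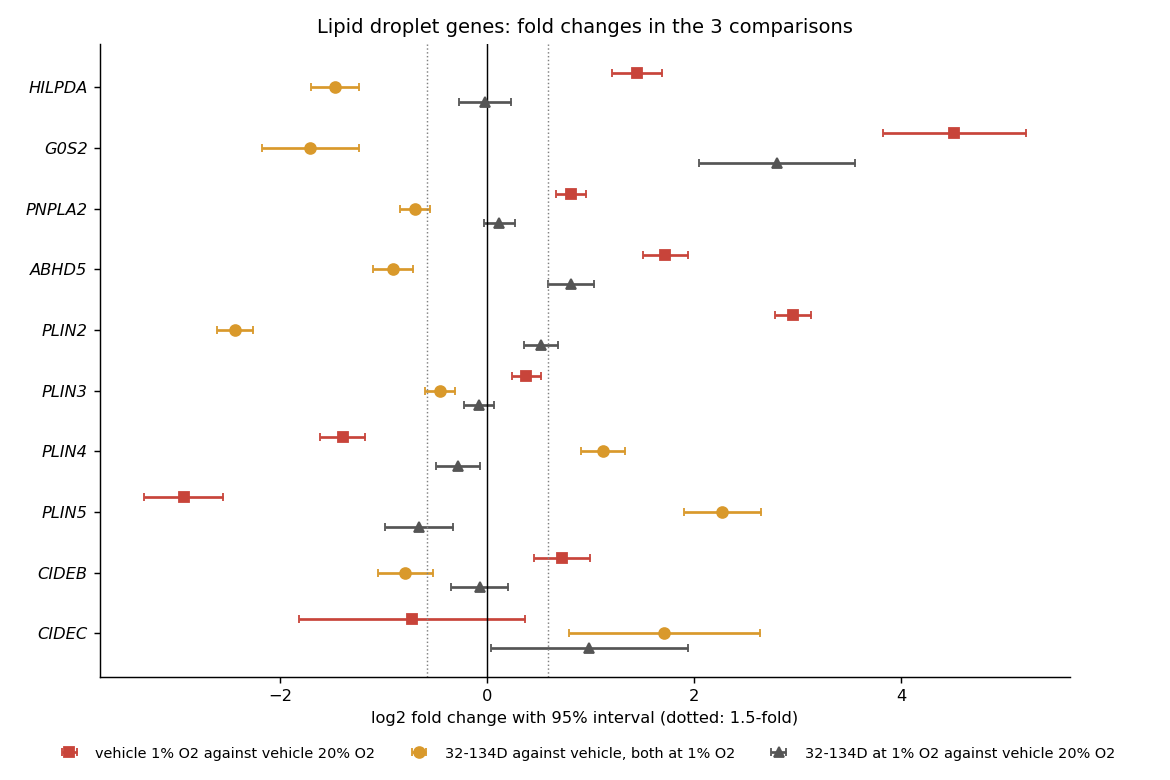
Log2 fold change of each gene in the 3 comparisons, with its 95% interval from the edgeR fit of the 9 libraries (n = 3 per group), and dotted lines at a 1.5-fold change. The first 2 comparisons share the vehicle libraries at 1% O2, and the intervals of HILPDA, PNPLA2, PLIN3 and CIDEB span 0 in the comparison of 32-134D with normoxic vehicle.

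The makeup of the perilipin transcripts changed with these values. Per kilobase of exon, PLIN2 made up 37.7% ± 0.360 of the summed level of the 4 perilipins in vehicle at 20% O2, 79.9% ± 0.631 in vehicle at 1% O2 and 48.3% ± 2.03 with 32-134D (SD, n = 3 each). PLIN3 made up 54.4% ± 0.970, 19.4% ± 0.624 and 46.2% ± 1.47, so the leading perilipin transcript was PLIN3 in normoxic and PLIN2 in hypoxic vehicle. The share of PLIN4 was 6.35% ± 0.716, 0.661% ± 0.0973 and 4.70% ± 0.643. The share of PLIN5 was 1.52% ± 0.0960, 0.0535% ± 0.0129 and 0.850% ± 0.0416. Every one of these shares lay between the vehicle groups with 32-134D. The order of PLIN2 and PLIN3 in normoxia depends on the length used, since with the longest transcript PLIN2 made up 56.5% ± 0.416, 89.5% ± 0.367 and 66.7% ± 1.77 of the sum, but the direction of its change was the same with either length.

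**Figure D4:**
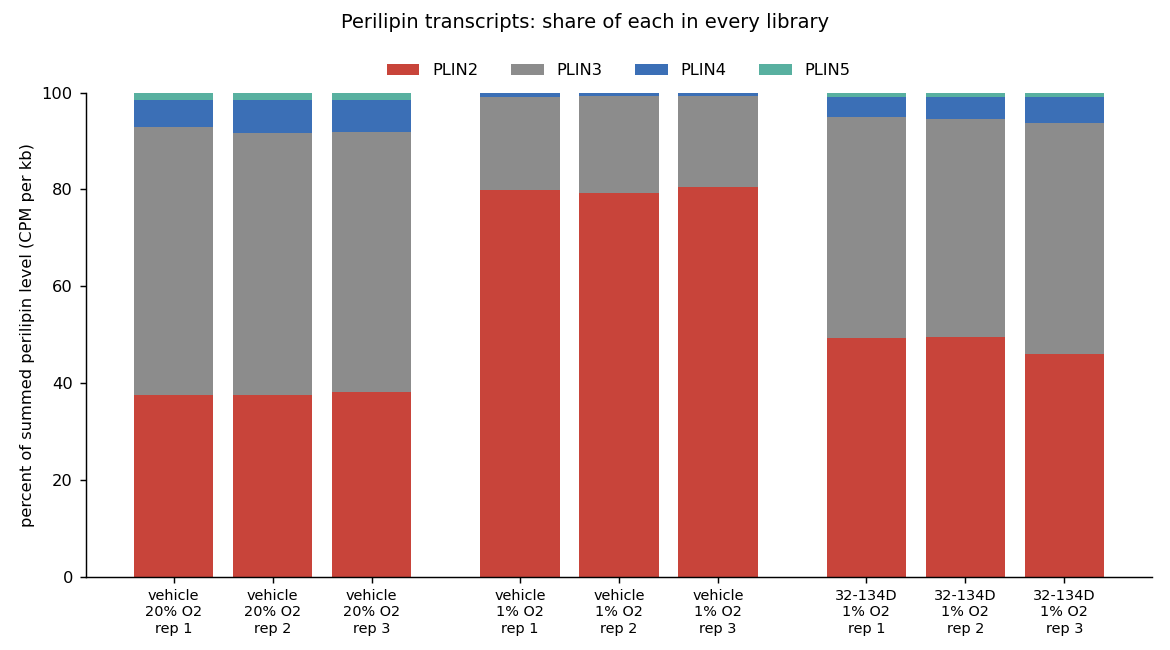
Share of PLIN2, PLIN3, PLIN4 and PLIN5 in their summed level (CPM per kilobase of exon) in each of the 9 libraries, as stacked bars from 0 to 100%. PLIN2 takes 37.7% of the sum on average in vehicle at 20% O2, 79.9% in vehicle at 1% O2 and 48.3% with 32-134D.

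The CIDE genes gave the least certain values. CIDEB (ENSG00000136305, chromosome 14, 24305096 to 24311430, minus strand) was at 34.5, 39.3 and 32.5 CPM in vehicle at 20% O2, 52.4, 63.7 and 57.3 CPM in vehicle at 1% O2, and 38.2, 35.3 and 26.3 CPM with 32-134D. Hypoxic vehicle was highest without overlap, and the other groups overlapped. Under hypoxia the log2 fold change was 0.72 (SE 0.13, edgeR FDR = 0.000201) and -0.79 with 32-134D at 1% O2 (SE 0.12, edgeR FDR = 8.89e-05). The call under hypoxia was lost with total library size (0.50) and with upper-quartile factors (0.53). In the GENCODE annotation 61.1% of the exon bases of CIDEB are shared with NOP9 and 39.9% with LTB4R2, both on the opposite strand, and the strand setting of the counting is not given in the sources used here. Reads of these genes may therefore not be told apart. NOP9 and LTB4R2 moved the other way, with log2 fold changes of -1.24 (SE 0.11, edgeR FDR = 2.78e-07) and -2.12 (SE 0.17, edgeR FDR = 6.54e-08) under hypoxia.

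CIDEC (ENSG00000187288, chromosome 3, 9866711 to 9880254, minus strand), which is best known for the single large droplet of adipocytes, was barely expressed. It had 8, 2 and 20 counts in vehicle at 20% O2, 13, 8 and 8 counts in vehicle at 1% O2, and 25, 22 and 43 counts with 32-134D. Scaled to depth, these were 0.574, 0.314 and 0.608 CPM, then 0.345, 0.377 and 0.277 CPM, then 0.709, 0.741 and 1.97 CPM. Replicate 3 of 32-134D was far above the others. Under hypoxia the log2 fold change was -0.73 (95% interval -1.82 to 0.37, edgeR FDR = 0.252), so the direction of a change was not settled at these counts. With 32-134D CIDEC was higher than in vehicle at 1% O2 by 1.71 on the log2 scale (SE 0.43, edgeR FDR = 0.00422), and by 1.12 without replicate 3 of 32-134D (edgeR FDR = 0.0185). The related gene CIDEA, of brown fat, had no read in any library.

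Ordered by level per kilobase in vehicle at 20% O2, the genes ran from PLIN3 (115 ± 4.17) and PLIN2 (79.8 ± 1.09) over PNPLA2 (33.7 ± 0.315), PLIN4 (13.4 ± 1.43), CIDEB (11.1 ± 1.09), HILPDA (5.90 ± 0.604), PLIN5 (3.22 ± 0.262) and ABHD5 (1.11 ± 0.0649) to G0S2 (0.410 ± 0.241) and CIDEC (0.259 ± 0.0835), in CPM per kilobase (SD, n = 3 each). PLIN4 and CIDEB overlapped, as did G0S2 and CIDEC. In vehicle at 1% O2 PLIN2 led at 617 ± 30.6 CPM per kilobase, ahead of PLIN3 at 149.5 ± 6.28 and PNPLA2 at 59.1 ± 1.82. CIDEB (18.1 ± 1.77) and HILPDA (15.8 ± 1.27), which overlapped, came next, and G0S2 (10.1 ± 1.60) now stood above PLIN4 (5.08 ± 0.534) and ABHD5 (3.71 ± 0.212). PLIN5 (0.416 ± 0.119) and CIDEC (0.173 ± 0.0267) were lowest. With 32-134D the levels of PLIN2 (114 ± 10.4) and PLIN3 (109 ± 2.86) overlapped, as did those of PLIN4 (11.0 ± 0.915) and CIDEB (10.4 ± 1.94) and those of PLIN5 (2.01 ± 0.188) and ABHD5 (1.97 ± 0.0647). PNPLA2 (36.5 ± 2.24), HILPDA (5.70 ± 0.545), G0S2 (3.13 ± 0.957) and CIDEC (0.591 ± 0.372) overlapped no neighbour in that order. These levels depend on the length used. With the longest transcript, 23 of the 30 levels moved by more than their SD, and with 32-134D PLIN2 (294.4 ± 26.8) no longer overlapped PLIN3 (131.4 ± 3.44). The order then changed for PLIN2 and PLIN3 and for PLIN4 and CIDEB in vehicle at 20% O2, for PLIN4 and ABHD5 in vehicle at 1% O2, and for PLIN4 and CIDEB and for G0S2 and PLIN5 with 32-134D.

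The genes whose pattern over the 9 libraries was most like that of HILPDA, by Pearson correlation of log2 CPM among the 13902 genes compared, were PEF1 (r = 0.9961), ALDOC (0.996), SHISA5 (0.9947), S100A10 (0.9938) and PRMT2 (0.9936). For PLIN2 they were PGK1 (0.9995), IL17RA (0.9988), ENO1 (0.9985), CITED2 (0.9985) and RETREG2 (0.9983). ALDOC, PGK1 and ENO1 encode glycolytic enzymes, and CITED2 encodes a protein that competes with HIF-1α for its co-activator. The libraries form 3 groups, so these values mostly record a like order and spacing of the group means, and 745 genes had an r above 0.95 with HILPDA and 2079 with PLIN2. By Spearman correlation 1 of these 5 genes stayed among the first 5 for HILPDA. For PLIN2, 2 reached the fifth highest Spearman value, but 44 genes did so because of ties, so no first 5 stand out there.

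Genes of the wider droplet and fatty acid pathways were counted in lists written from general knowledge. Of 41 genes on the 4 lists, 39 could be tested (CIDEA had no read and CYP4A11 had 1). Under hypoxia 10 were higher (25.6%) and 9 were lower (23.1%), beside 19.5% and 20.3% of all genes, and with 32-134D at 1% O2, 8 were higher (20.5%) and 6 were lower (15.4%), beside 16.2% and 13.7%. These shares are near the background. Against vehicle at 20% O2, 2 were higher (5.13%) and 0 were lower, beside 3.0% and 0.516% of all genes. A count of 0 among 39 genes is near the background. For that count of 0 by the edgeR test, DESeq2 also gave 0, and 5 of the 39 were lower at an unadjusted edgeR p below 0.05.

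Of 8 genes for triglyceride synthesis and the budding of droplets from the endoplasmic reticulum, LDAF1 (also called promethin), the partner of seipin in droplet assembly, was the only 1 called, with a log2 fold change of 1.07 under hypoxia (SE 0.23, edgeR FDR = 0.00117) and of -0.90 with 32-134D at 1% O2 (SE 0.21, edgeR FDR = 0.00241). Its levels were 1.89 ± 0.728, 3.96 ± 0.435 and 2.12 ± 0.123 CPM in the 3 groups (SD, n = 3 each). The call of LDAF1 under hypoxia was lost after thinning all libraries to the smallest (0.81, edgeR FDR = 0.0658). With a filter of 10 or more counts in each library LDAF1 was not tested. Over all genes tested, 19.5% were called higher under hypoxia and 13.7% lower with 32-134D at 1% O2. Seipin itself, BSCL2, had a log2 fold change of 0.03 under hypoxia, and the triglyceride synthases DGAT1 and DGAT2 had -0.40 and -0.19. The other 4 genes of the list, FITM1, FITM2, ACSL3 and PCYT1A, were not called either. DGAT1 was called lower under hypoxia with total library size (-0.61) and with upper-quartile factors (-0.59). The list's median log2 fold change was 0.0097 under hypoxia and -0.03 with 32-134D at 1% O2.

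Of 5 other lipid hydrolases, 2 were lower under hypoxia and higher with 32-134D at 1% O2, beside 20.3% and 16.2% of all genes, and the other 3 were not called. PNPLA3, a paralog of PNPLA2 that is linked to fatty liver disease, fell from 36.1 ± 3.34 to 9.02 ± 0.743 CPM and was at 24.5 ± 7.39 CPM with 32-134D (SD, n = 3 each). Its log2 fold changes were -2.01 (SE 0.18, edgeR FDR = 2.92e-07) and 1.45 (SE 0.18, edgeR FDR = 1.07e-05). LIPA, the lysosomal acid lipase, had -0.87 (SE 0.16, edgeR FDR = 0.000270) and 0.66 (SE 0.15, edgeR FDR = 0.00226). LIPE (hormone-sensitive lipase), MGLL (monoglyceride lipase) and DDHD2 were not called, and MGLL had 29 counts in all. The call of LIPA with 32-134D was lost without replicate 1 of 32-134D (0.56). The list's median was -0.21 under hypoxia and 0.48 with 32-134D at 1% O2.

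Of 13 other droplet coat proteins, 12 were tested. Under hypoxia SPART (log2 fold change 0.89), RAB18 (0.74), AUP1 (0.67) and HSD17B11 (0.59) were higher, and METTL7A (-3.59), VPS13C (-2.13) and METTL7B (-1.24) were lower. RAB18 is a small GTPase of the droplet surface, VPS13C is a lipid transfer protein, and METTL7A and METTL7B are methyltransferase-like proteins of droplets and the endoplasmic reticulum. With 32-134D at 1% O2, METTL7A (2.92), VPS13C (2.02) and METTL7B (1.15) were higher and SPART was lower (-0.75). The call of SPART with 32-134D was lost with total library size (-0.565) and after thinning (-0.53). Among all genes tested, 19.5% were called higher and 20.3% lower under hypoxia, and 16.2% and 13.7% with 32-134D at 1% O2. METTL7A went from 39.0 ± 3.12 CPM in normoxic to 3.21 ± 0.494 CPM in hypoxic vehicle and was at 24.4 ± 11.0 CPM with 32-134D (SD, n = 3 each). With total library size RAB18 (0.52), AUP1 (0.45) and HSD17B11 (0.38) were no longer called under hypoxia. HSD17B11 was also lost by DESeq2 (0.54) and without any 1 of 5 of the libraries (0.53 to 0.58). PLIN1, the perilipin of adipocytes, had 172 counts in all and was not called. The list's median was 0.35 under hypoxia and -0.11 with 32-134D at 1% O2.

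PPAR target genes moved in both directions. Of 14 tested, 5 were higher and 4 were lower under hypoxia, and with 32-134D at 1% O2, 3 were higher and 4 were lower. Of all genes tested, 19.5% were higher and 20.3% lower under hypoxia, and 16.2% and 13.7% with 32-134D at 1% O2. ANGPTL4, which encodes a secreted inhibitor of lipoprotein lipase and is also a HIF target, went from 2.52 ± 0.300 to 108 ± 14.5 CPM and was at 7.50 ± 0.544 CPM with 32-134D (SD, n = 3 each). Its log2 fold changes were 5.43 under hypoxia (SE 0.14, edgeR FDR = 1.67e-12), -3.85 with 32-134D at 1% O2 (SE 0.11, edgeR FDR = 2.98e-11), and 1.58 against vehicle at 20% O2 (SE 0.15, edgeR FDR = 1.10e-05). FGF21, a hepatic hormone of fasting, had 2.83, -1.02 and 1.81 in the same order, at no more than 1.88 CPM on average in any group. Its calls with 32-134D were lost after thinning (-0.91, edgeR FDR = 0.160, and 1.71, edgeR FDR = 0.144). With a filter of 10 or more counts in each library FGF21 was not tested. PDK4, ACSL1 and CREB3L3 were the other 3 that were higher under hypoxia, at 1.10, 0.85 and 0.65. VNN1 (-1.39), the carnitine-acylcarnitine carrier SLC25A20 (-0.90) and FABP1 (-0.59) were among those lower under hypoxia. The calls of VNN1, FABP1 and CREB3L3 under hypoxia were lost without single libraries. Without replicate 1 of vehicle at 1% O2 VNN1 was at -1.0 and FABP1 at -0.44 and neither was called, and without replicate 1 of vehicle at 20% O2 CREB3L3 was at 0.37 and VNN1 at -1.0. The call of VNN1 was also lost with the replicate block (-1.35, edgeR FDR = 0.0836), by DESeq2 (adjusted p = 0.0794), with no filter on low counts (edgeR FDR = 0.0672) and with only the 2 groups compared (edgeR FDR = 0.0694). That of FABP1 was lost with no filter (-0.56) and with only the 2 groups compared (-0.58), and that of CREB3L3 with total library size (0.43) and with upper-quartile factors (0.46). ACSL1 was lower with 32-134D at 1% O2 (-0.64), a call lost without replicate 1 of either vehicle group or replicate 2 of 32-134D (-0.58 to -0.52). That call was also lost with each of the other scalings (-0.58 to -0.45) and by DESeq2 (-0.58). It was lost too with only the 2 groups compared (-0.58), with 10 or more counts in each library (-0.54) and after thinning (-0.40). Among the 3 genes higher with 32-134D at 1% O2 were SLC25A20 (0.68, edgeR FDR = 0.000249) and VNN1 (1.82, edgeR FDR = 0.00673). VNN1 had 81 counts in all, and its call with 32-134D was lost after thinning (1.88, edgeR FDR = 0.210). With 10 or more counts in each library VNN1 was not tested. The β-oxidation genes CPT1A, ACADVL, ACADM and HADHA were not called, with log2 fold changes from 0.05 to 0.25 under hypoxia. The list's median was 0.23 under hypoxia and -0.14 with 32-134D at 1% O2.

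PLIN4 and PLIN5 are neighbours on chromosome 19, and the protein-coding genes tested within 100 kb of the pair were examined after the values of the pair had been seen. SEMA6B, a semaphorin 15.98 kb upstream of the PLIN5 start site by its midpoint, had log2 fold changes of -1.39 under hypoxia (SE 0.08, edgeR FDR = 4.04e-09) and 1.01 with 32-134D at 1% O2 (SE 0.08, edgeR FDR = 2.28e-07), beside -1.40 and 1.12 for PLIN4. LRG1, which lies between PLIN5 and SEMA6B, was lower under hypoxia at -0.62 (SE 0.08, edgeR FDR = 9.58e-06) and was not called with 32-134D at 0.34. AC011498.4 lies on the same strand as PLIN5 and shares 1047 exon bases with it, so that reads of these genes may not be told apart, and its log2 fold changes were -2.28 and 1.95. On the other side, HDGFL2, UBXN6 and CHAF1A were not called under hypoxia (-0.15, 0.50 and 0.30), and UBXN6 was lower with 32-134D at 1% O2 (-0.59, SE 0.07, edgeR FDR = 1.08e-05). Among these 8 genes, those called lower under hypoxia ran from PLIN4 to SEMA6B. PLIN4 and PLIN5 set the window and AC011498.4 shares exon bases with PLIN5, so only LRG1 and SEMA6B add separate observations to this run. Over all genes tested, 20.3% were called lower, and whether the run departs from that share was not tested. SEMA6B is the last gene tested on its side of the window, so genes beyond it were not examined.

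**Figure D5:**
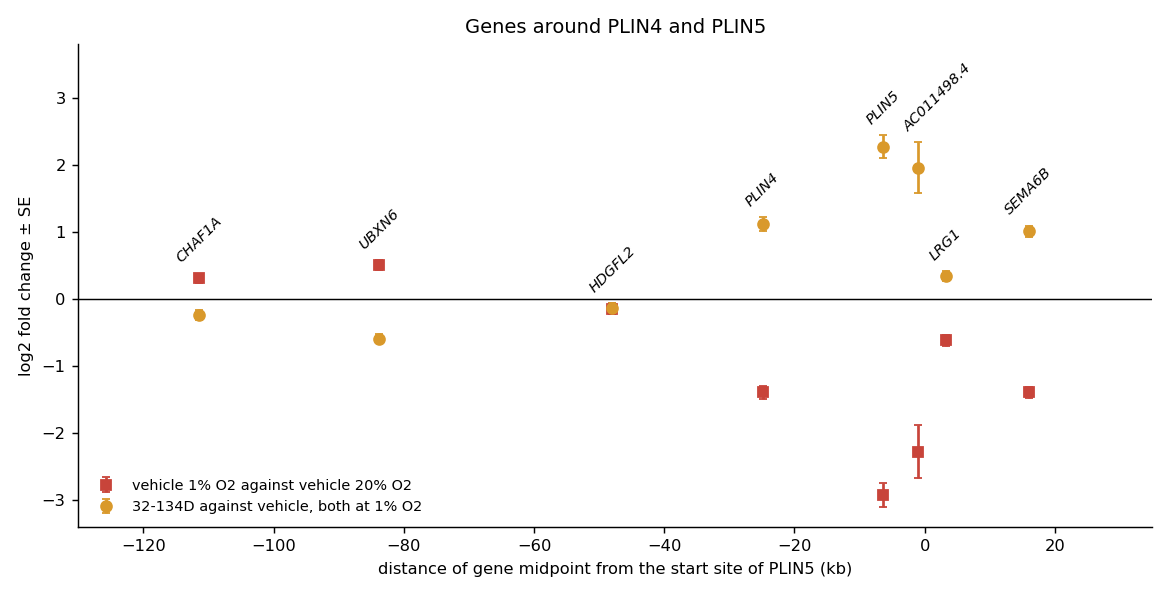
Log2 fold change with its SE for the 8 protein-coding genes tested within 100 kb of PLIN4 and PLIN5, by the distance of each gene's midpoint from the PLIN5 start site in kilobases, with positive distances upstream of PLIN5. PLIN4, PLIN5, AC011498.4, LRG1 and SEMA6B lie below 0 under hypoxia, CHAF1A and UBXN6 lie above it, and HDGFL2 is at -0.15.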

How the data were processed

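RNA-seq was done on total RNA from 9 cultures of Hep3B cells. The authors deposited a table of raw counts, for which reads were checked (FastQC), trimmed (Bbduk), mapped with STAR to the GRCh38 genome of Ensembl release 100 and counted per gene by featureCounts. Tool versions and the strand setting are not given in the sources used here. The sample labels describe culture in DMEM/F12 medium and the paper's methods describe another DMEM formulation. All 9 columns were matched to samples by name, with 0 left over, and 0 rows lacked a gene name. Total counts were 6013980 to 40549699 per library, and few counts limit the precision for G0S2 and CIDEC.

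Genes whose summed count was 10 or more entered 1 fit of the 9 libraries with edgeR 4.0.16 (R 4.3.3, TMM, quasi-likelihood test, Benjamini-Hochberg FDR over 22672 genes), and the procedure was tested on simulated data. The SE was the log2 fold change divided by the square root of its F statistic. The authors' own thresholds for DESeq2 were kept for calls, that is an FDR below 0.05 with a change of more than 1.5-fold. Positions and exon lengths are from GENCODE version 29 and promoters from RefSeq on GRCh38.p14. The same-numbered libraries did not deviate together (correlations of -0.14 to 0.06 over 13911 genes), so replicate numbers were taken as names. No pair of replicates was as close as counting error alone would make it (chi-square over its degrees of freedom from 1.64 to 40.5).

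The 10 genes and the lists were chosen with earlier results of these data known. The genes named are the 10, members of the lists, genes whose exons overlap those of the 10, the 5 most like HILPDA and PLIN2 among genes with a mean of at least 1 CPM (log2 CPM with a prior count of 2), and genes marked as chosen after their values were seen. Alternatives were other scalings, DESeq2 1.42.0, other filters and thresholds, fits of the 2 groups compared, a replicate block, thinning to 6013980 counts, leaving out each library, and the length of the longest transcript. The values of 2 listed genes, which are part of the counts, are not reported here.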

Additional observations from a re-analysis of the deposited data

How the results depend on the processing

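Of the fold changes of the 10 genes under the alternatives, 519 kept their direction and their side of the thresholds, 7 lost a call, 1 gained one and 7 changed sign. The sign changes were in values near 0 for 32-134D against vehicle at 20% O2, namely HILPDA, which was at 0.00038 with no filter and ran from -0.1031 to 0.03978 when single libraries were left out, and CIDEB, which ran from -0.1749 to 0.08088 when they were left out (highest without replicate 3 of 32-134D). The calls lost were those of CIDEB, PNPLA2 and PLIN5 given in the report. In that comparison CIDEC had no adjusted p from DESeq2. A fold change above 2 left 3 members lower with 32-134D at 1% O2, and 1 higher and 0 lower against vehicle at 20% O2. A filter of 10 or more counts in each library removed G0S2 and CIDEC and left 1 member higher in that comparison, and the lower count ran from 0 to 1 when single libraries were left out (0 without replicate 2 of vehicle at 20% O2 or replicate 3 of 32-134D).

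Of the 39 partner and PPAR genes, 10 were higher under hypoxia, and this count was 6 with total library size, 6 with upper-quartile factors, 5 with the stricter count filter, 17 with no fold change threshold and 4 with a fold change above 2. Of these genes 6 were lower with 32-134D at 1% O2, and 3, 2, 12 and 2 were with that filter, after thinning, with no fold change threshold and with a fold change above 2. Against vehicle at 20% O2, 2 were higher, but 1 with that filter and 1 after thinning. The count of 0 lower became 2 with upper-quartile factors, 2 with no filter, 1 after thinning and 1 with no fold change threshold, and ran from 0 to 2 when single libraries were left out, with 2 without replicate 1 and 2 without replicate 2 of 32-134D (PNPLA3 and FABP1).

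Over all genes, the 117 lower genes with 32-134D against vehicle at 20% O2 ranged from 35 (without replicate 2 of vehicle at 20% O2) to 291 (no filter). The 4412 higher under hypoxia became 2824 with the stricter count filter. The filters also changed the number of genes tested, from 22672 to 33284 with no filter and to 12912 with the stricter one. The 3100 lower with 32-134D at 1% O2 became 1847 with total library size. With the replicate block, 4296 genes were higher and 4375 lower under hypoxia, 3474 higher and 3012 lower with 32-134D at 1% O2, HILPDA was at 1.44 and -1.47 and PLIN2 at 2.95 and -2.44, and no call of the 10 genes changed, while of the 39 listed genes VNN1 lost its call under hypoxia. The cause of these changes was not tested.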
